A study of Mus musculus with 96 samples.

Results

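The vacuolar H+-ATPase (V-ATPase) is a proton pump built from many subunits, and several of them are encoded by more than 1 gene. Here 5 pairs of subunit genes were followed along the mouse nephron, each made of an isoform known from acid-secreting intercalated cells, called the specialised isoform below, and its widely expressed common isoform. The pairs were Atp6v1b1 and Atp6v1b2 (subunit B), Atp6v0a4 and Atp6v0a1 (subunit a), Atp6v1g3 and Atp6v1g1 (subunit G), Atp6v1c2 and Atp6v1c1 (subunit C), and Atp6v0d2 and Atp6v0d1 (subunit d). The 10 genes were picked by symbol from the 54532 genes of the expression table, and all 10 were found and passed the filter on low values. Transcript abundance had been measured in 93 samples from 53 male C57BL/6 mice aged 6 to 8 weeks, kept on normal chow with free access to water, by RNA sequencing of very small amounts of hand-dissected tubule (87 samples) or glomerulus (6 samples). No animal carried a transgene or received a treatment according to the labels, and the groups differ in the dissected structure only. The groups were glomerulus (GL), the first convoluted (PTS1), cortical straight (PTS2) and last straight (PTS3) parts of the proximal tubule, the descending thin limb of short loops (DTL1) and of long loops in the outer (DTL2) and inner medulla (DTL3), the ascending thin limb (ATL), the thick ascending limb of medulla (MTAL) and cortex (CTAL), DCT (distal convoluted tubule), CNT (connecting tubule), and the cortical, outer medullary and inner medullary collecting duct (CCD, OMCD, IMCD). PTS2, CTAL and CCD held 5 mice each, ATL and OMCD 4, and each other group 3.

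The V-ATPase has a peripheral V1 sector, which hydrolyses ATP, and a membrane V0 sector, which carries protons, and it acidifies lysosomes and endosomes in nearly every cell. In the kidney it also sits in the plasma membrane of intercalated cells, where type A cells secrete acid and type B cells secrete bicarbonate, and in the apical region of proximal tubule cells. Subunit B is part of the catalytic head, subunit a forms part of the proton path, subunits C and G belong to the stalks that hold the sectors together, and subunit d couples the central stalk to the membrane ring. Loss of ATP6V1B1 or ATP6V0A4 in humans causes distal renal tubular acidosis, often with hearing loss. Foxi1 is a forkhead transcription factor needed for intercalated cells.

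Values are in TPM, transcript abundance scaled for transcript length and to one total per sample, so levels of different genes can be set side by side. The mouse was the replicate, and the 1 to 3 pieces of tubule taken from a mouse were averaged. Read depth cannot be recovered from TPM and is unknown for every value. Libraries differed in breadth: the number of genes at 1 TPM or more was 13170 to 13813 per mouse in CNT and CCD, 17213 to 20867 in OMCD, and 26044 to 29454 in DTL1. Odorant and vomeronasal receptor genes, which kidney tubules are not known to express broadly, numbered 0 to 1 per mouse in CNT and CCD, 69 to 239 in OMCD, 17 to 659 in ATL and 704 to 861 in DTL1. The dissection labels matched their defining markers, with the NaCl cotransporter gene Slc12a3 at 5782 ± 220.2 TPM (SD, n = 3) in DCT and at most 8.06 TPM on average in any other group. The water channel gene Aqp2 averaged 6186 TPM in CNT and 119 TPM in DCT, the thick limb gene Umod 36935 TPM in CTAL and 1808 TPM in DCT.

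The promoters of the specialised isoforms are shown because these genes and Foxi1 were high in the same segments, CNT, CCD and OMCD. RefSeq's promoter table matched 6 of the 10 genes, 4 of them specialised isoforms (assembly GRCm38.p6), and the 250 bases before the start of each are printed 5′ to 3′ on the gene's own strand. Capitals mark a forkhead word, searched on both strands as the word TATTTAC, the word TATTTAT, the word TGTTTAC or the word TGTTTAT, with overlapping matches counted separately. The region of Atp6v1b1 is chr6:83742767-83743016 on the plus strand, that of Atp6v0a4 chr6:38124587-38124836 on the minus strand, that of Atp6v1g3 chr1:138273488-138273737 on the plus strand and that of Atp6v1c2 chr12:17324731-17324980 on the minus strand.
Atp6v1b1: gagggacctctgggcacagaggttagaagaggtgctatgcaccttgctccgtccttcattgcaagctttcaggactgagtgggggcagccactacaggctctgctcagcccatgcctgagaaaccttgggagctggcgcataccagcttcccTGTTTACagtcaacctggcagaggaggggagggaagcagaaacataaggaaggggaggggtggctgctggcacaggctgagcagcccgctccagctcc
Atp6v0a4: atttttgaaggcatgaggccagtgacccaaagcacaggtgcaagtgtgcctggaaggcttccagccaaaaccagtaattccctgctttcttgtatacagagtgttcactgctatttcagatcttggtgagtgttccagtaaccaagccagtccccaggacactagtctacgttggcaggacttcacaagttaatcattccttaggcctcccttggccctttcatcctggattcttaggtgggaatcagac
Atp6v1g3: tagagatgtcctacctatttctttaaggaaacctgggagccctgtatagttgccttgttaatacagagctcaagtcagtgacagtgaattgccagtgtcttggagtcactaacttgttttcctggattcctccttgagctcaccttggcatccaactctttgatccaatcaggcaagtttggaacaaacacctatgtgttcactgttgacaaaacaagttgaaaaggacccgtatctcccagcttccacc
Atp6v1c2: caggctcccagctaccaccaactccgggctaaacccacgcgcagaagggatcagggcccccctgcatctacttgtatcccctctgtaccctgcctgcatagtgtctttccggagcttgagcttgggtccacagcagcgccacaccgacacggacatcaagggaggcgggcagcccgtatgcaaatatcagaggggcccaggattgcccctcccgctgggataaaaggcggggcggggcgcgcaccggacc
Of the 6 matched promoters, Atp6v1b1 alone held a forkhead word in the searched window of 300 bases, TGTTTAC on the gene's strand, whose first base lies at position -98 from the start. Among all 32851 promoters of 300 bases in the table, 15% held at least 1 of the 4 words. A word is a match of letters and not a shown binding site, and its lack in the other 5 windows covers these words and these bases.

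Subunit B changed its main isoform along the distal tubule. Atp6v1b1 (ENSMUSG00000006269) stood at 858, 962 and 1192 TPM in the 3 CNT mice, at 535, 553, 619, 727 and 1226 TPM in the 5 CCD mice and at 724, 886, 924 and 927 TPM in the 4 OMCD mice. The ranges of these 3 segments overlapped, and 1 CCD mouse with 1226 TPM stood above the other 4. Before them, Atp6v1b1 stood at 8.14, 27.4 and 27.5 TPM in MTAL, at 123, 153, 171, 195 and 222 TPM in CTAL and at 168, 180.3 and 202 TPM in DCT. CTAL and DCT overlapped, MTAL lay below both, and every other group averaged 1.8 TPM or less, including IMCD with 0.0833, 0.427 and 1.03 TPM. Its common partner Atp6v1b2 (ENSMUSG00000006273) followed another course: it was highest in PTS1 with 454 ± 62.7 TPM and PTS2 with 251 ± 13.8 TPM, and its group means ran from 85.5 TPM in ATL to 202 TPM in CNT elsewhere. PTS1 did not overlap PTS2, and PTS2 did not overlap CNT, the next in order.

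Subunit a was the pair with the broadest specialised isoform. Atp6v0a4 (ENSMUSG00000038600) stood at 105, 132 and 136 TPM in CNT, at 85.3, 97.9, 109, 122 and 140.3 TPM in CCD and at 70.8, 101, 105 and 119.9 TPM in OMCD. It was also present in PTS1, at 48.2, 54.7 and 71.5 TPM, and in DCT, at 51.4, 58 and 62.4 TPM, so that CNT, CCD, OMCD, PTS1 and DCT each overlapped the next in order. CTAL and MTAL followed with means of 44.2 and 40.3 TPM, DTL2 with 26.8 TPM, PTS2 with 16.8 TPM and PTS3 with 10.1 TPM. It was lowest in IMCD, at 0.413, 0.727 and 0.773 TPM. The common Atp6v0a1 (ENSMUSG00000019302) had the lowest mean of the common isoforms in CNT, CCD and OMCD, and its group means ran from 10.9 TPM in PTS3 to 67.5 TPM in DTL3. It stood at 36.1 ± 0.831 TPM in CNT, 35 ± 2.04 TPM in CCD and 37.7 ± 4.34 TPM in OMCD, inside the range of the thin limbs.

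Subunit G had the specialised isoform with the sharpest boundary between CTAL and DCT. Atp6v1g3 (ENSMUSG00000026394) stood at 888, 924 and 939 TPM in CNT, at 601, 710.3, 749, 770.4 and 772 TPM in CCD, at 411, 483, 563 and 572 TPM in OMCD and at 183, 193 and 194 TPM in DCT. These 4 groups did not overlap one another, and in the other 11 groups no mean exceeded 1.39 TPM. CTAL, which lies next to DCT, held 0.195 to 1.01 TPM. Atp6v1g1 (ENSMUSG00000039105) kept means between 127 TPM in CTAL and 176 TPM in CNT from CTAL to OMCD and was highest in PTS1 with 398 ± 7.96 TPM, above DTL3 with 276 ± 22 TPM and IMCD with 267 ± 14 TPM. Its values are uncertain, because 24% of its transcript words of 31 bases also occur in the annotated gene Gm13453, and reads from there could be split between them.

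The specialised isoform of subunit C was also present in DTL3. Atp6v1c2 (ENSMUSG00000020566) stood at 475, 535 and 546 TPM in CNT, at 418, 449, 454, 505 and 543 TPM in CCD and at 233, 282, 285 and 295 TPM in OMCD, with CNT and CCD overlapping and OMCD below them. DCT held 105, 115 and 128 TPM, and DTL3, the inner medullary descending limb, held 38, 44.6 and 48.9 TPM. The neighbouring DTL2 averaged 1.03 TPM and ATL 1.77 TPM. Foxi1 averaged 0.345 TPM, the anion exchanger gene Slc4a1 0.10 TPM and Aqp2 12.7 TPM in the same DTL3 mice, and the other 4 specialised isoforms averaged 2.5 TPM or less. The summed level of the 6 shared intercalated cell genes (Foxi1, Hepacam2, Rhcg, Rhbg, Car2, Car12) was 38.2 to 76.2 TPM in DTL3 against 10959 to 11782 TPM in CNT. The DTL3 mice also held 22250 to 24123 genes at 1 TPM or more, up to 517 receptor genes per mouse, Umod at 188 to 329.6 TPM and the endothelial gene Plvap at 403 to 1144 TPM, whose part in the Atp6v1c2 level was not tested. Atp6v1c1 (ENSMUSG00000022295) had the narrowest range of all members, from 55.7 TPM in IMCD to 156 TPM in DTL2, a ratio of 2.81 between the highest and the lowest group mean.

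In subunit d both isoforms were higher in CNT, CCD and OMCD than in the segments from PTS1 to CTAL. Atp6v0d2 (ENSMUSG00000028238) stood at 785, 789 and 814 TPM in CNT, at 640.2, 657, 662, 669.7 and 704 TPM in CCD, at 301, 324, 421 and 428 TPM in OMCD and at 140.1, 147 and 154 TPM in DCT. None of these 4 groups overlapped, CTAL followed with 7.09, 7.28, 8.18, 8.3 and 11 TPM, and every remaining group averaged 2.59 TPM or less. Atp6v0d1 (ENSMUSG00000013160) stood at 165, 192 and 226 TPM in CNT, at 205, 207, 249, 309 and 312 TPM in CCD and at 194, 252, 277 and 283 TPM in OMCD, 3 groups that overlapped one another. It averaged 101 TPM in PTS1, below all of them, and between 50.4 and 90.7 TPM in the other groups.

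**Figure D1:**
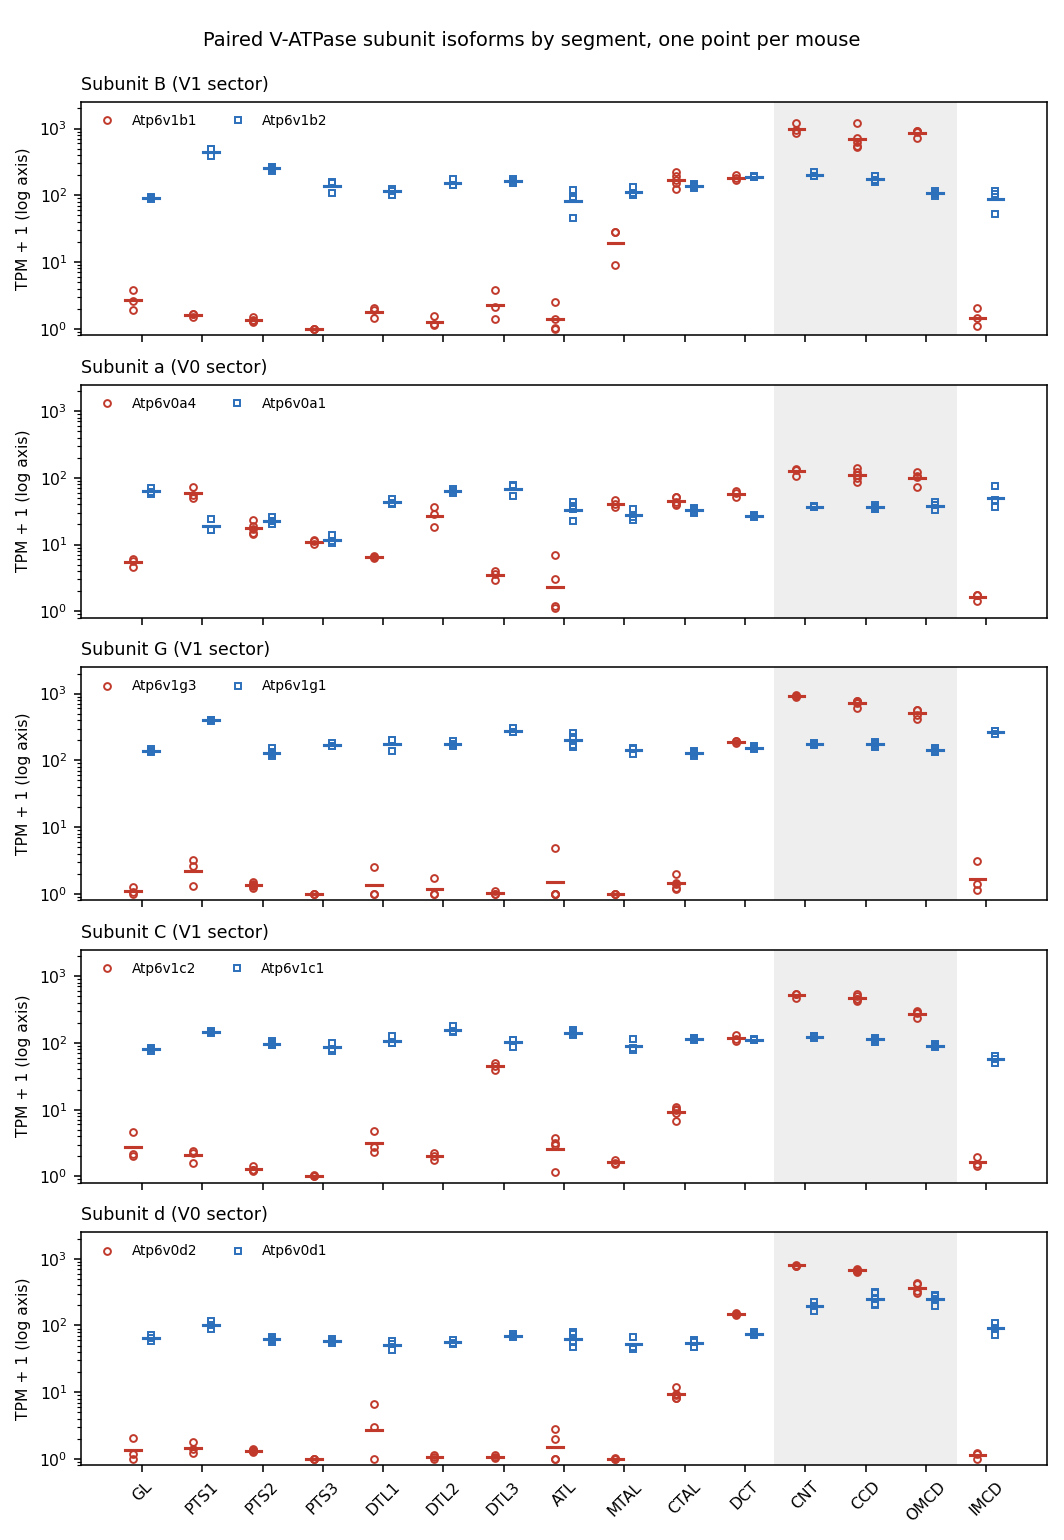
TPM + 1 (log axis) of both isoforms of each subunit in the 15 groups, 1 point per mouse (circles for the specialised isoform, squares for the common isoform), with bars at the mean of the log values and grey shading over CNT, CCD and OMCD. The specialised isoforms stand above their partners in the shaded segments and near the bottom of the axis in most others, while Atp6v0a4 is also present in proximal tubule and thick limb, Atp6v1b1 in thick limb and Atp6v1c2 in DTL3.

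Within the 12 mice of CNT, CCD and OMCD, each specialised isoform exceeded its common partner. The log2 difference of TPM + 1, specialised minus common, was 2.40 ± 0.59 (SD, n = 12) for subunit B, 2.05 ± 0.27 for G, 1.91 ± 0.29 for C, 1.56 ± 0.33 for a and 1.27 ± 0.65 for d. The difference was positive in 12 of 12 mice for every pair, and an exact sign-flip permutation test, two-sided, gave p = 0.00048828 for each, the smallest 12 mice allow, and the same after Benjamini-Hochberg adjustment over the 5 pairs. Subunit d had the smallest margin, and in OMCD its difference was 0.55 ± 0.21 (n = 4). In IMCD the order was turned in all 3 mice of each pair, with differences between -7.56 ± 0.42 for G and -4.98 ± 0.70 for a.

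As a share of the TPM of its pair, Atp6v1b1 had shares of 14.5% ± 6.48 in MTAL and 55% ± 6.14 in CTAL, then 49.1% ± 2.2 in DCT and 83% ± 2.66 in CNT (mean ± SD over mice). Its share was 79.2% ± 5.47 in CCD, 89% ± 0.808 in OMCD and 0.655% ± 0.776 in IMCD. Atp6v0a4 made up 76.3% ± 1.11 of its pair in PTS1, a share that fell within the spread of those in CNT (77.3% ± 2.47) and CCD (75.5% ± 4.0), against 43.2% ± 6.94 in PTS2 and 48.2% ± 3.48 in PTS3. In DCT the shares of the 5 specialised isoforms lay between 49.1% ± 2.2 for B and 68.5% ± 1.37 for a, and in CNT between 77.3% ± 2.47 for a and 83.9% ± 0.175 for G. Atp6v1c2 reached 30.2% ± 4.4 of its pair in DTL3 and 6.73% ± 1.3 in CTAL, and Atp6v0d2 13.4% ± 1.17 in CTAL.

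**Figure D2:**
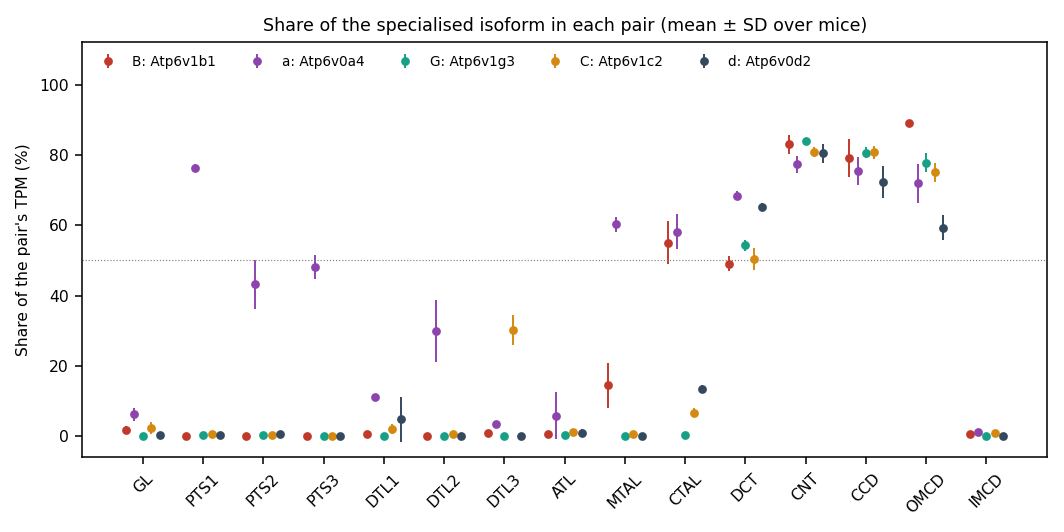
Share of the specialised isoform in the summed TPM of its pair (percent, linear axis) in the 15 groups, with points at the mean and bars of ±1 SD over mice, and a dotted line at 50%. All 5 shares lie above the line in CNT, CCD and OMCD and near 0 in IMCD, while subunit a is above it from MTAL to OMCD and in PTS1.

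The difference between the isoforms was compared between segments in 30 exact permutation tests over mice, two-sided, for 5 pairs and 6 pairs of segments. After Benjamini-Hochberg adjustment over the 30, the 5 tests of CTAL against CCD (5 mice each) passed: the specialised isoform stood lower relative to its partner in CTAL, with CTAL minus CCD values of -8.54 log2 units for G, -5.73 for C, -3.95 for d, -1.67 for B and -1.15 for a, each with exact p = 0.0079365, the smallest possible, and adjusted p = 0.047619. Leaving out any 1 mouse of CTAL or CCD ended all 5 calls, because 4 against 5 mice allow only larger p-values. CCD minus OMCD, the values were -1.04 for B, 0.48 for C and 0.85 for d, with exact p = 0.015873 each and adjusted p = 0.059524. An exact test of DCT against CNT cannot go below p = 0.1 with 3 mice on each side, and an exact test of OMCD against IMCD not below 0.0571. The differences there were large in size, -2.35 for B and -2.13 for G as DCT minus CNT, and 8.96 for B and 9.38 for G as OMCD minus IMCD, and the groups did not overlap for these.

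The question of which members mark the segments rich in intercalated cells was put to limma, a linear model fitted to log2(TPM + 1) over all 33793 genes that passed the filter. CNT, CCD and OMCD were set against the 9 tubule segments from PTS1 to CTAL, and a gene was called at a Benjamini-Hochberg adjusted p under 0.05 with a log2 difference of at least 1. Of the 10 members, 6 were called, all higher: the 5 specialised isoforms and Atp6v0d1. Over all genes tested, 9.35% were called in either direction and 6.22% were higher. In bulk tubules, fewer cells of a type and less RNA per cell cannot be told apart.

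Atp6v1g3 had the largest difference, with 411 to 939 TPM (median 729.7) against 0 to 3.92 TPM (median 0.155), distal mice first, and a log2 difference of 9.07 (SE 0.14, limma adjusted p = 6.31e-41). Atp6v0d2 stood at 301 to 814 TPM (median 659) against 0 to 11 TPM (median 0.258), a difference of 8.48 (SE 0.14, limma adjusted p = 2.11e-40). These ranges were far apart, and the 12 distal mice also lay above all 32 others for Atp6v1b1, Atp6v1c2 and Atp6v0d1. The share of all genes that separated the 12 from the 32 mice was not counted. Atp6v1b1 differed by 7.99 (SE 0.14), Atp6v1c2 by 7.04 (SE 0.11) and Atp6v0d1 by 1.90 (SE 0.07). Atp6v0a4 overlapped, at 70.8 to 140.3 TPM (median 107) against 0.13 to 71.5 TPM (median 16.8), the highest of the latter being a PTS1 mouse, and differed by 2.94 (SE 0.14, limma adjusted p = 1.94e-22). The other 4 common isoforms stayed under the size asked for. Their log2 differences were 0.26 (SE 0.08) for Atp6v0a1, -0.0035 (SE 0.09) for Atp6v1b2, -0.07 (SE 0.05) for Atp6v1c1 and -0.19 (SE 0.05) for Atp6v1g1. Over the alternative settings the lowest values were -0.35 for Atp6v1b2, -0.42 for Atp6v1c1 and -0.54 for Atp6v1g1. The sign of Atp6v0a1 turned when each mouse was rescaled, to -0.08 by the median ratio and -0.12 by quantile normalization, so no direction is given for it. The median difference was 7.99 over the specialised isoforms, 0 over the common isoforms and -0.15 over all genes tested, and the named values are not shifted by that median.

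Most of the other subunits were also higher in these 3 segments, by smaller steps. Of the 15 other subunit and accessory subunit genes, 11 were higher, 1 was lower and 3 were not called (median difference 1.52). The catalytic subunit gene Atp6v1a averaged 1049.5 TPM in CNT and 1035 TPM in CCD against 137 TPM in PTS1 and 417 TPM in CTAL, a difference of 2.39 (SE 0.08). The accessory subunit genes Atp6ap2, the (pro)renin receptor, and Atp6ap1 differed by 2.38 and 2.04, the regulatory subunit H gene Atp6v1h by 1.88, and the ring subunit gene Atp6v0c by 1.81. The exception was Atp6v0e2, one of 2 genes for subunit e, which was lower by 3.75 log2 units (SE 0.12, limma adjusted p = 1.3e-28). It averaged 119 TPM in PTS1 and 229 TPM in DTL3, but 2.47 TPM in CNT and 2.34 TPM in CCD, where its partner Atp6v0e averaged 1837 and 1559.7 TPM. The other genes for subunit a were not called: Atp6v0a2, known from the Golgi, averaged 62 TPM and Tcirg1, known from osteoclasts, 15.8 TPM in CNT. Atp6v1e2, the other gene for subunit E and the third not called, averaged 0.0283 TPM in CNT against 1801 TPM for Atp6v1e1.

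Of the 12 assembly factor, RAVE complex and TLDc protein genes found in the table, 6 were higher and 0 lower (median difference 0.80). The RAVE complex helps V1 join V0, and its genes Rogdi and Dmxl1 differed by 2.11 and 1.85, while Wdr7 (0.59) and Dmxl2 (-0.32) were not called. The TLDc protein gene Tldc2 had the largest difference of the list, 5.09 (SE 0.18). Its level was uneven, at 390.0 ± 76.4 TPM in CNT, 520.1 ± 43.9 TPM in CCD and 4.53 ± 5.11 TPM in OMCD, while ATL, one of the segments on the other side of the comparison, held 968 ± 389 TPM (n = 4).

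**Figure D3:**
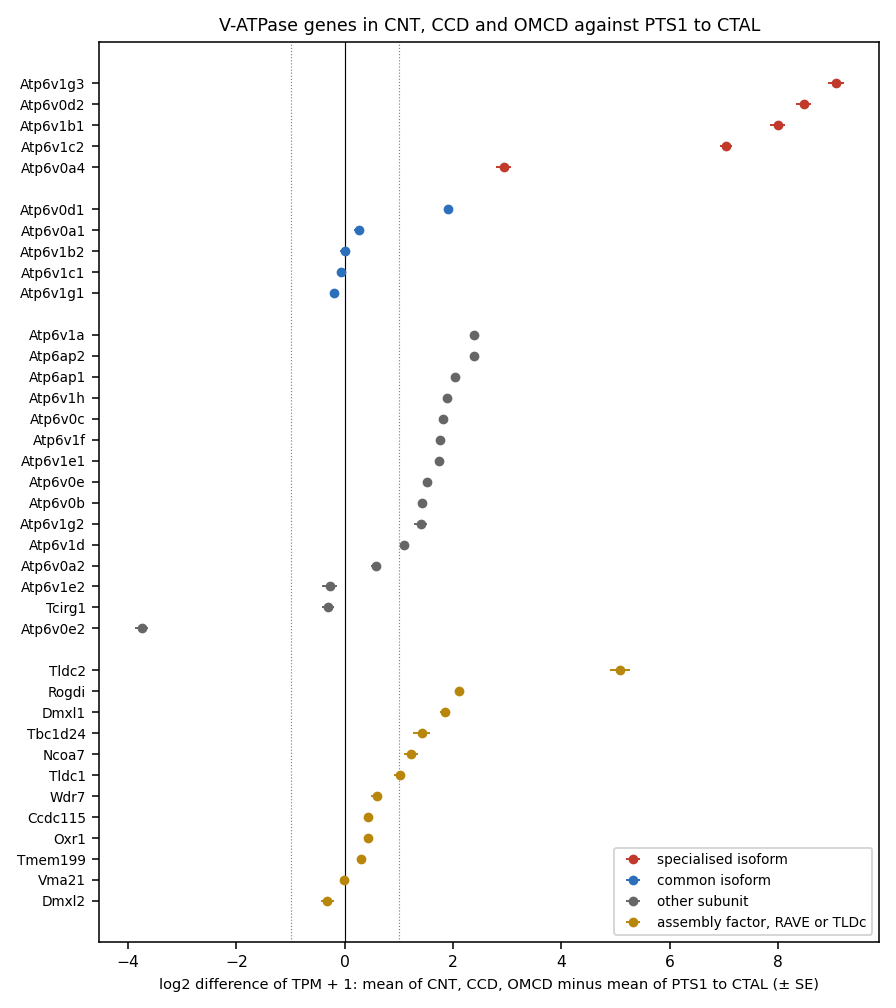
Log2 difference of TPM + 1 between the mean of CNT, CCD and OMCD and the mean of the 9 segments from PTS1 to CTAL, with bars of ±1 SE, for the 10 members, the 15 other subunit genes and 12 assembly genes, and dotted lines at -1 and 1. The specialised isoforms other than Atp6v0a4 lie beyond 7, the common isoforms lie near 0 except Atp6v0d1 at 1.90, and Atp6v0e2 is the plotted gene beyond -1.

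Markers also differed in this comparison. All 6 shared intercalated, 5 type A, 5 type B and 7 principal cell genes were higher, all 7 proximal and 3 of 4 thick limb genes were lower, and none of 3 distal convoluted tubule genes was called. The part of each cell type in the member differences was not tested. The summed principal cell genes ranged over 12701 to 16518 TPM in CNT and 50.9 to 92.8 TPM in CTAL. None of 5 endothelial genes was called, and of 6 leukocyte genes 2 were higher and 1 was lower.

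Between MTAL and CTAL, 3 of the 10 members were called, all lower in MTAL, where 3.15% of all genes were called and 2.57% were lower. Atp6v1b1 was lower by 3.18 log2 units (SE 0.29), Atp6v0d2 by 3.19 (SE 0.29) and Atp6v1c2 by 2.52 (SE 0.24). The sizes for these low genes depended on the pseudocount, Atp6v0d2 being lower by 6.24 with 0.1 and by 1.41 with 5 in place of 1 and Atp6v1c2 by 3.61 and 1.24, while all stayed called. For Atp6v1c2 the MTAL mice held 0.525 to 0.77 TPM and the CTAL mice 5.67 to 10.1 TPM, and the ranges did not overlap for any of these 3 genes. In the same CTAL mice Foxi1 stood at 0.13 to 1.02 TPM, Slc4a1 at 0.040 to 0.515 TPM, Slc12a3 at 0.16 to 0.415 TPM and Aqp2 at 4.12 to 7.06 TPM. Some other genes of the intercalated and principal cell lists stood higher there, among them Car2 at 456 to 524 TPM and Avpr2 at 42.3 to 80.1 TPM. The summed type A genes were 1.93 to 3.2 TPM in CTAL against 122 to 150.3 TPM in DCT. Of the 6 shared intercalated cell genes 2 were lower in MTAL, the carbonic anhydrase gene Car12 with 1.1 to 1.75 TPM against 80.6 to 127 TPM in CTAL and Rhcg with 1.28 TPM on average in CTAL, and the summed list was 571 to 629.5 TPM in CTAL against 2241 to 2379.6 TPM in DCT. Of the other lists, 1 of 5 type A, 1 of 5 type B, 3 of 7 principal, 1 of 5 endothelial and 2 of 6 leukocyte genes were lower in MTAL, and 1 principal cell gene was higher. The leukocyte gene Lyz2 was not called and stood the other way, at 54.4 to 86.9 TPM in MTAL against 10.6 to 20.2 TPM in CTAL. Proximal genes averaged less in MTAL except Aqp1 (2.01 TPM against 1.16 TPM in CTAL). Slc34a1 averaged 0.633 TPM in MTAL and 14.3 TPM in CTAL, and Slc22a6 0.035 and 1.56 TPM. Each thick limb gene also averaged less in MTAL, Cldn16 with 53.4 TPM against 482 TPM. The leukocyte sums were 316 to 557 TPM in MTAL and 414 to 899.9 TPM in CTAL, and the part of these lists in the member differences was not tested.

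Between CTAL and DCT, 3 members were called, all lower in CTAL, against 4.35% of all genes called and 2.01% lower. Atp6v1g3 was lower by 7.01 (SE 0.31), Atp6v0d2 by 3.92 (SE 0.29) and Atp6v1c2 by 3.63 (SE 0.24). Atp6v1b1 differed by -0.11 (SE 0.29, limma adjusted p = 1) and Atp6v0a4 by -0.36 (SE 0.30, limma adjusted p = 0.974). The CTAL mice of G, C and d thus lay below their DCT mice, whereas for B the 2 segments overlapped. For Atp6v0a4 the CTAL mice also lay below the DCT mice, but narrowly, with at most 51.06 TPM against at least 51.395 TPM. Of the marker lists, 5 of 6 shared intercalated, 4 of 5 type A, 4 of 5 type B and 5 of 7 principal cell genes were lower in CTAL. The remaining type A gene, Slc26a7, was higher there by 1.07 (SE 0.28, limma adjusted p = 0.00901). All 4 thick limb genes were higher in CTAL (median difference 7.42), and all 3 distal convoluted tubule genes were lower (median difference -8.67). The part of these lists in the member differences was not tested.

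Between DCT and CNT, 6 members were called, all lower in DCT, against 5.22% of all genes called and 3.7% lower. Atp6v0d2 was lower in DCT with 140.1 to 154 TPM against 785 to 814 TPM in CNT (limma adjusted p = 1.07e-07). Atp6v1b1 was lower by 2.44 log2 units (SE 0.33), Atp6v1g3 by 2.32 (SE 0.34), Atp6v1c2 by 2.19 (SE 0.27), and the common Atp6v0d1 by 1.36 (SE 0.18). Atp6v0a4 was lower by 1.11 (SE 0.33, limma adjusted p = 0.0203), a call that was lost under rescaling and without any 1 of 4 mice (DCT replicates 2 and 3, CNT replicates 1 and 3), with adjusted p between 0.0607 and 0.0888 in those 4 fits. The difference itself stayed between -1.11 and -1.03 in those 4 fits. With a pseudocount of 0.1 the call of Atp6v1g3 was lost too (-2.33, limma adjusted p = 0.0622). In DCT the mean level was 18.3% of that in CNT for Atp6v1b1, 18.5% for Atp6v0d2, 20.7% for Atp6v1g3 and 22.4% for Atp6v1c2. Atp6v0a4 stood at 46.1%. Over the marker lists the same percentage ran from 12.2% (Car12) to 28.4% (Rhcg) for the 6 shared intercalated cell genes, with Foxi1 at 15.4%, and from 9.73% (Aqp6) to 18.9% (Slc4a1) for the 5 type A genes. It ran from 6.72% (Hmx2) to 74.7% (Slc4a8) for the 5 type B genes and from 0.234% (Aqp4) to 36.2% (Scnn1g) for the 7 principal cell genes. The percentages of the 4 most reduced isoforms thus lay inside the range of the shared intercalated cell genes. The type B range reached them through Slc4a8 alone, as the next highest gene, Slc4a9, stood at 14.2%. The principal cell range reached them through Scnn1g and Scnn1b (26.7%) alone, as the next highest gene, Hsd11b2, stood at 8.3%. Whether DCT pieces held connecting tubule cells or intercalated cells of their own was not tested.

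Between CNT and CCD none of the 10 members was called by limma (0), against 1.12% of all genes, and 1 had an unadjusted p under 0.05, Atp6v0d1 with a difference of -0.39 (SE 0.16, limma adjusted p = 0.405). Between CCD and OMCD limma again called none (0), against 12.1% of all genes. That share was 4095 genes as reported, and the count ran from 839 to 11271 over the alternative settings. Of the members, 5 had an unadjusted p under 0.05, a cut for which the share of all genes was not counted in any comparison. The same 5 were under 0.05 after adjustment, but with a log2 difference below 1: Atp6v0d2 at 0.87 (SE 0.27), Atp6v1c2 at 0.79 (SE 0.22), Atp6v1b2 at 0.73 (SE 0.17), Atp6v1c1 at 0.31 and Atp6v1g1 at 0.27. Atp6v1b1 had the other sign, -0.31 (SE 0.27, limma adjusted p = 0.404). The OMCD mice lay below all CCD mice for Atp6v0d2, Atp6v1c2, Atp6v1g3, Atp6v1b2, Atp6v1c1 and Atp6v1g1. How many of all genes separated these mice in the same way was not counted, so this does not set the members apart. For Atp6v1b1 the OMCD mice lay inside the CCD range, which reached above them through CCD replicate 2 alone. Without that mouse the difference was -0.51 (limma adjusted p = 0.163).

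The type of intercalated cell transcript differed between these 2 segments. Of the 5 type B genes 4 were higher in CCD, where Slc26a4 averaged 1769 TPM against 4.4 TPM in OMCD and Hmx2 313 against 1.86 TPM. Of the 5 type A genes 3 were lower in CCD, where Slc4a1, the basolateral exchanger of type A cells, averaged 496 TPM against 1582 TPM. The 6 shared intercalated cell genes stood in OMCD at 33.2% (Car12) to 78.5% (Car2) of their CCD level, with Foxi1 at 60.1%, and Car12 and Hepacam2 (38.9%) were called. Among the specialised isoforms, Atp6v0d2 stood at 55.3%, Atp6v1c2 at 57.8%, Atp6v1g3 at 70.4%, Atp6v0a4 at 89.4% and Atp6v1b1 at 118%. These ratios of means thus differed among the specialised isoforms, and no test was made of the spread between them. Of the 5 endothelial genes 3 were lower in CCD, among them Pecam1 by 1.25 and Cdh5 by 1.17. Plvap was the third, with 84.1 to 142 TPM against 270.3 to 373 TPM in OMCD. Of other lists, 2 of 7 proximal and 1 of 4 thick limb genes were higher in CCD. Lower there were 1 other thick limb gene and 1 of 7 principal cell genes. Slc34a1 averaged 18.8 TPM in CCD and 0.421 TPM in OMCD, Slc22a6 2.224 and 0.146 TPM, and Umod 25.1 and 2.745 TPM. Cldn19 averaged 10.2 and 31.7 TPM, and Aqp4 68.8 and 590 TPM. The part of these lists in the isoform ratios was not tested. Receptor transcripts and gene breadth also differed between CCD and OMCD, the median of all genes was lower in CCD by 0.3 log2 units, and their part in these values was not tested.

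**Figure D4:**
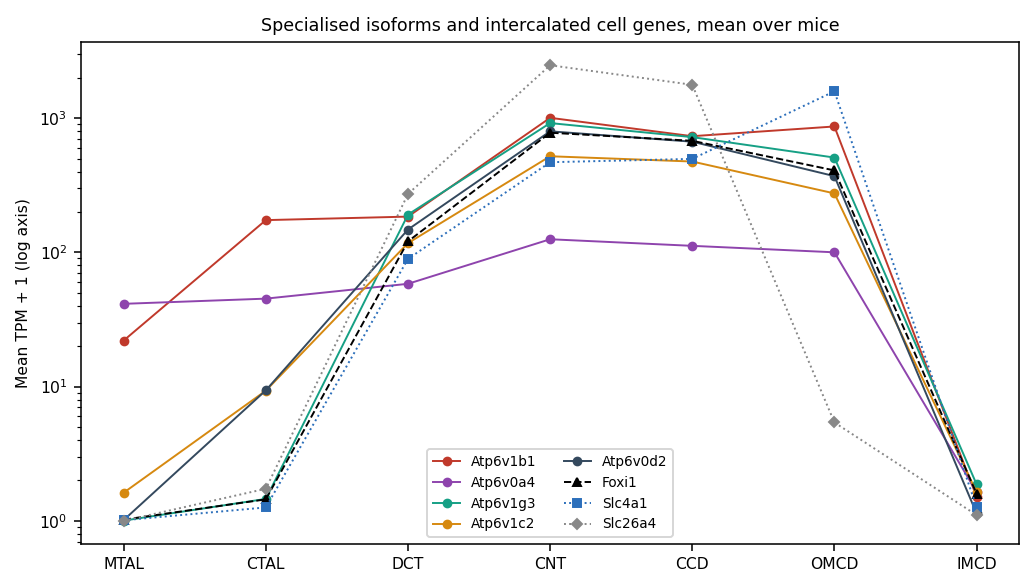
Mean TPM + 1 over mice (log axis) of the 5 specialised isoforms (solid lines), Foxi1 (dashed) and the exchanger genes Slc4a1 and Slc26a4 (dotted) in the 7 groups from MTAL to IMCD, with no error shown. Atp6v1b1 and Atp6v0a4 are already present in CTAL while Foxi1 is near 0, all 5 isoforms peak in CNT, and Slc26a4 falls away in OMCD where Slc4a1 is highest.

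Between OMCD and IMCD, 6 members were called, all higher in OMCD, against 18.6% of all genes called and 15.2% higher. Atp6v1b1 differed by 9.27 (SE 0.31), Atp6v1g3 by 8.48 (SE 0.32), Atp6v0d2 by 8.36 (SE 0.31), Atp6v1c2 by 7.53 (SE 0.25), Atp6v0a4 by 5.95 (SE 0.31) and Atp6v0d1 by 1.47 (SE 0.17). The specialised isoforms reached at most about 2.08 TPM in every IMCD mouse. Foxi1 averaged 0.594 TPM in IMCD, while the 7 principal cell genes ranged from 0.0346% (Scnn1b) to 102% (Aqp2) of their OMCD level, with Aqp4 at 99.2%, Avpr2 at 79.5%, Aqp3 at 7.46%, Hsd11b2 at 0.149% and Scnn1g at 0.0577%. The common isoforms kept between 36.1% (Atp6v0d1) and 187% (Atp6v1g1) of their OMCD level, and under median ratio rescaling Atp6v1g1 was called as well, lower in OMCD by 1.16 (limma adjusted p = 3.56e-11). Of the 15 other subunit genes 9 were higher in OMCD and 1 was lower. Of the other marker lists, 4 of 5 endothelial and 3 of 4 thick limb genes were higher in OMCD, as were 5 of 6 leukocyte genes, the sixth being lower. The leukocyte sums were 103 to 465.85 TPM in OMCD and 17.9 to 34.9 TPM in IMCD, and the endothelial sums 364 to 486 and 21 to 302 TPM. IMCD mice held 13595 to 14712 genes at 1 TPM or more and 3 to 22 receptor genes. The median over all genes was higher in OMCD by 0.32 log2 units, and the part of these differences in the member values was not tested.

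In the proximal tubule, 2 members were called between PTS1 and PTS2, both higher in PTS1, against 9.57% of all genes called and 4.46% higher. Atp6v0a4 differed by 1.73 (SE 0.30, limma adjusted p = 9.58e-06), with 48.2 to 71.5 TPM in PTS1 and 13.2 to 22.4 TPM in PTS2. Atp6v1g1 differed by 1.61 (SE 0.11, limma adjusted p = 7.99e-16). Atp6v1b2, with a difference of 0.84 (SE 0.18), was under the size asked for and passed it, at 1.02, when mice were rescaled by the median ratio. Listed markers differed too. Car2 averaged 1280 TPM in PTS1 and 49.3 TPM in PTS2, Car12 246 and 17.6 TPM, and Slc5a2 2792 and 0.688 TPM. Others went the other way, among them Slc22a6 with 30.9 and 981 TPM and Aqp1 with 18.2 and 519 TPM. Their part in the member differences was not tested. In PTS1, Atp6v1b2 averaged 454 TPM and Atp6v1b1 0.613 TPM, while among the genes for subunit a Atp6v0a4 averaged 58.2 TPM, Atp6v0a2 27.1 TPM, Atp6v0a1 18.1 TPM and Tcirg1 13.6 TPM. The summed TPM of the subunit B pair was 455 ± 62.6 in PTS1 and 1205 ± 168 in CNT, and that of the subunit a pair 76.3 ± 16.4 and 160.2 ± 16.5. Between PTS2 and PTS3 no member was called by limma (0), against 4.7% of all genes, while 4 had an unadjusted p under 0.05. Of these, Atp6v0a1 differed by 0.95 and Atp6v1b2 by 0.85, both under the size asked for. In PTS3, Atp6v1b1, Atp6v1g3 and Atp6v0d2 were listed at 0 in all 3 mice.

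Over all 15 groups, the moderated F-test passed at an adjusted p under 0.05 for 10 of the 10 members and for 93.9% of all genes, so passing it does not set the members apart. Across the 15 group means of log2(TPM + 1), the specialised isoforms followed each other, with Pearson r from 0.587 for Atp6v0a4 with Atp6v1c2 to 0.98 for Atp6v1g3 with Atp6v0d2, whereas among the common isoforms r ran from -0.423 for Atp6v1b2 with Atp6v0a1 to 0.48 for Atp6v1b2 with Atp6v1c1. These are descriptions over 15 points that share the same libraries within each group. Of 12058 genes compared, those whose pattern was most like the specialised isoforms were Atp6v1h (mean r 0.904), the 2-oxoglutarate receptor gene Oxgr1 (0.897), the ammonia transporter gene Rhcg (0.892), the epithelial sodium channel genes Scnn1b (0.891) and Scnn1g (0.889), Tmem52 (0.889), Foxi1 (0.888) and Hsd11b2 (0.887). Both intercalated cell genes (Foxi1, Rhcg) and principal cell genes (Scnn1b, Scnn1g, Hsd11b2) are among them. Oxgr1 averaged 332 TPM in CNT, 206 TPM in CCD and 18.9 TPM in CTAL. The common isoforms had no close match, the highest mean r being 0.404 for Rnf186 and 0.403 for Bex4.

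The partners of a pair can be told apart by their reads, as 0 words of 31 bases were shared between the annotated transcripts of any specialised isoform and its common partner. Atp6v0a4 shares 5.28% of its words with other genes, chiefly D630045J12Rik, which overlaps it on the same strand over 5.21% of its exonic bases, and Tmem213 overlaps it on the opposite strand over 1.25%. Atp6v1c2 overlaps Pdia6 on the opposite strand over 2.3% of its exonic bases. Whether the counting used strand is not given in the sources used here, so a small part of the Atp6v0a4 and Atp6v1c2 values could come from these neighbours.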

How the data were processed

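TPM were deposited by the authors. Per the submitters' processing notes, the tools named were STAR 2.5.4a, RSEM 1.3.0, Cell Ranger 3.0.2 and Seurat, with no role stated. The genome build, annotation and strand setting are not given in the sources used here. Per the labels' protocols, cDNA came from SMARTer V4 and libraries from Nextera XT. Values are rounded to 2 decimals for tubules (87 columns) and 1 for glomeruli (6 columns). Depth is unknown, so no counting interval is given. No sample columns were identical (0 pairs). The authors' 14 segment means were not used, 0 columns of other samples were left aside, and 3 single-cell samples were not analysed here. The name of one PTS2 column fits no title, as it differs by its piece letter from the only PTS2 title with its mouse number. Its mouse was therefore entered without a number.

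For the linear model, the isoform differences and the shares, pieces of a mouse were averaged as log2(TPM + 1). The printed TPM levels and summed TPM of pairs are plain means of the pieces, so shares need not follow exactly from them. Genes at 1 TPM or more in at least 3 mice were kept (33793). limma 3.58.1 (R 4.3.3; lmFit, eBayes with trend) was fitted with all 15 groups sharing 1 spread, and p-values were Benjamini-Hochberg adjusted over all genes kept. Log2 differences on this scale understate the change of low genes. Exact permutation tests used scipy 1.17.1. Each contrast was tested on simulated data, where 91% to 99% of 200 genes changed by 2 log2 units were called, besides 0 to 6 unchanged ones. How often genes are wrongly called or missed in the deposited TPM was not tested. Deviations of same-numbered mice of different segments had a median correlation of 0 (290 pairs, from -0.22 to 0.282). Differently numbered mice also had a median of 0 (968 pairs, from -0.283 to 0.26). Yet 26 of 51 mice correlated best with their own number, so whether same-numbered samples are independent is not settled by this check. As 53 mice stand behind 53 combinations of number and segment, numbers were not used to pair samples, and all tests treat the mice as separate animals. That mice are separate animals is taken from the series' own numbers.

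The members and gene lists were chosen with earlier results of these data known. The genes named are the 10 members, genes of the fixed lists, markers that moved with a result, and the 8 genes with the highest mean correlation to each set of isoforms (at least 10 TPM in 1 group mean, passing over predicted, mitochondrial, ribosomal and pseudogene names). 1 gene of the list of shared intercalated cell genes is not reported here. Of 13 assembly genes listed, Meak7 is named Tldc1 in the table and was counted once. Alternative settings were a pseudocount of 0.1 or 5, a 5 TPM filter or none, rescaling by median ratio or quantiles, averaging before the log, pieces as samples, a replicate block, fits of the compared groups alone, and each mouse left out.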

Additional observations from a re-analysis of the deposited data

Results flagged for a closer look

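In 3 of 50 sets of values (each of the 10 members in each of the 5 groups with 4 or more mice), 1 mouse stood apart from the others, where chance alone marks about 1 in 20. Atp6v1b1 stood at 1226.2 TPM in CCD replicate 2 against 534.62 to 727.28 TPM in the other 4 mice. Atp6v1g3 stood at 3.92 TPM in ATL replicate 2 and was listed at 0 in the other 3. Atp6v1c2 stood at 0.455 TPM in PTS2 replicate 3 against 0.19 to 0.26 TPM.

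The difference between the isoforms of a pair was itself different between CTAL and CCD for all 5 pairs by exact permutation tests over 5 and 5 mice (adjusted p = 0.047619 each). Specialised minus common, CTAL minus CCD, the values were -1.67 for subunit B, -1.15 for a, -8.54 for G, -5.73 for C and -3.95 for d.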

How the results depend on the processing

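The count of members called kept within 1.5 times its main value in 256 of 259 alternative fits. The 3 exceptions were PTS2 against PTS3, where 5 members were called with a pseudocount of 0.1, 3 under quantile normalization and 1 without PTS3 replicate 3, against 0. The first of these rests mainly, and the second wholly, on isoforms below 1 TPM. The count of all genes called moved beyond 1.5 times its main value in 18 alternative fits. It ran from 2826 to 11665 around 6284 for OMCD against IMCD. For PTS1 against PTS2 it ran from 1811 to 8926 around 3233. Across replicates left out, the number of isoform tests passed of 30 ranged from 0 to 5, and it was 26 when pieces were counted as independent samples. Atp6v1c2 made up 0.884% of its pair in IMCD, and 1.17% or 1.13% with pieces averaged before the log or counted as samples. The share of all calls that were higher in CNT, CCD and OMCD was 66.5%, and 52% or 57.3% under median ratio or quantile rescaling. The same rescalings gave 46.9% and 45.8% for DCT against CNT (29.1% as deposited), 65.9% and 45.9% for OMCD against IMCD (81.7%), 51.1% and 58.6% for CNT against CCD (39.2%), and 57.2% and 63.4% for PTS2 against PTS3 (83.9%). The median ratio gave 67.7% for PTS1 against PTS2 (46.6%), quantiles 29.4% for MTAL against CTAL (18.7%) and 56.4% for CCD against OMCD (14.3%). Among member differences past the threshold in neither fit, 46 of 1960 changed sign, none above 0.3117 as reported. Atp6v0a4 lost its DCT to CNT call at a pseudocount of 0.1 (-1.12, limma adjusted p = 0.253) and under the median ratio (-0.75, limma adjusted p = 0.205) and quantiles (-0.86), and Atp6v1g3 lost its own at 0.1 (-2.33, limma adjusted p = 0.0622). Calls were gained by Atp6v1c2 between PTS1 and PTS2 at 0.1 (1.55) and, under the median ratio, by Atp6v1b2 there (1.02) and Atp6v1g1 between OMCD and IMCD (-1.16). With the mouse number as replicate block, members called were 6 in CNT, CCD and OMCD against PTS1 to CTAL and 6 in DCT against CNT, as without it, and the block changed no other count of members. Of 51 mice, 26 correlated best with their own number. The count to be met without pairing was not worked out, so nothing is concluded from it. Depth is unknown and limits what can be said of values near 0.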
